A study of Homo sapiens with 12 samples.

Results

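Tight junctions close the gap between neighbouring epithelial cells, and 9 of their genes are described here in 2 human breast cancer cell lines given a glucocorticoid. The genes were chosen by symbol as the claudins CLDN1, CLDN3, CLDN4 and CLDN7, the membrane proteins OCLN and F11R, and the cytoplasmic plaque proteins TJP1, TJP3 and CGN. All 9 symbols were found, each in 1 row, among the 51838 genes of the deposited count table, and all 9 passed the filter on low counts. RNA selected for polyA tails was sequenced from HCC70 and MDA-MB-231 cells, both labelled basal-like breast cancer, in 12 libraries. Each line had 3 libraries after 4 h with 100 nM dexamethasone, a synthetic glucocorticoid that activates the glucocorticoid receptor, and 3 after 4 h with the same volume of ethanol, its vehicle. HCC70 cells were grown in RPMI medium and MDA-MB-231 cells in DMEM, both with serum, so a difference between the lines and a difference between the media cannot be told apart. The labels do not say whether the replicates of a group were separate cultures, so the p-values measure the spread between these libraries, which may be technical.

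Claudins are membrane proteins with 4 passes through the membrane whose outer loops meet those of the next cell and form the strands that seal, or selectively open, the space between cells. Occludin (OCLN) and junctional adhesion molecule A (F11R) sit in or beside these strands. Zonula occludens proteins (TJP1 is ZO-1 and TJP3 is ZO-3) and cingulin (CGN) hold the strands to actin and myosin inside the cell. In the breast, tight junctions close the layer of luminal epithelial cells, and glucocorticoids are long known to tighten the junctions of cultured mammary epithelial cells. MDA-MB-231 is commonly classed among the claudin-low lines, a class named for low CLDN3, CLDN4 and CLDN7.

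The libraries held between 106345287 and 123218973 counts. Levels are given as CPM, counts scaled by TMM to a common library total, and a gene with no count in the 3 libraries of a group would lie below a limit of 0.00827 to 0.00861 CPM, which covers counting error only. Known glucocorticoid targets rose in both lines in edgeR's quasi-likelihood test, FKBP5 by 6.20-fold in HCC70 and 19.9-fold in MDA-MB-231, PER1 by 7.33-fold and 14.9-fold, and TSC22D3 by 2.70-fold and 28.9-fold. Of the basal markers, KRT5, KRT14 and KRT17 averaged 2595, 86.7 and 254 CPM in HCC70 vehicle but 0.804, 0.238 and 1.28 CPM in MDA-MB-231 vehicle, so the basal keratins were near absent in the second line. The other basal markers were EGFR, at 328 and 356 CPM, and TP63, at 1.37 and 0.326 CPM. Of the epithelial markers, CDH1 averaged 517 CPM in HCC70 vehicle and 2.28 in MDA-MB-231 vehicle, EPCAM 99.5 and 15.3, KRT19 2245 and 388, and KRT8 1164 and 818, while KRT18 was higher in MDA-MB-231, at 435 and 706 CPM. All 5 mesenchymal markers had higher means in MDA-MB-231 vehicle, among them VIM at 145 and 2212 CPM and the repressor gene ZEB1 at 0.373 and 48.5 CPM. The leukocyte markers PTPRC and CD3E and the endothelial marker CDH5 averaged at most 0.187 CPM in any group, the endothelial marker VWF at most 0.658 CPM, and CD68, the third leukocyte marker, 23.5 CPM in HCC70 vehicle and 65.7 CPM in MDA-MB-231 vehicle. Each library's deviation from the mean of its line also followed the GC content of the genes, with Spearman correlations of -0.638, -0.346 and -0.160 in the HCC70 vehicle libraries and 0.537, 0.413 and 0.388 in the treated ones. In MDA-MB-231 they were 0.719, 0.183 and -0.256 in vehicle and -0.551, 0.285 and -0.535 in dexamethasone. Values with this trend removed are given below where they change a call, and that correction was added once the trend had been seen. The trend ran with treatment, as log2 fold changes had Spearman correlations with GC content of 0.513 in HCC70 and -0.462 in MDA-MB-231. In MDA-MB-231 the libraries were not split cleanly by treatment, as dexamethasone replicate 2 (0.285) lay above vehicle replicates 2 and 3 (0.183 and -0.256). A trend of the libraries and a response of GC-rich genes were not told apart here, and the correction removes both.

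In vehicle, the gap between the 2 lines was wider than either response to the hormone in 8 of the 9 genes, all but TJP1. Of the 9 genes, 8 were higher in HCC70 and 0 were lower at an adjusted p under 0.05 (edgeR's quasi-likelihood test, Benjamini-Hochberg over 28141 genes), where 79.2% of all genes tested passed, 39.2% as higher in HCC70 and 40% as lower. At an unadjusted p under 0.05 the count of genes lower in HCC70 was also 0, as it was with DESeq2 and limma voom at the adjusted threshold. A log2 difference above 2 was seen in 7 of the 9 genes, above 4 in 4 and above 6 in 1, against 14%, 6.34% and 3.87% of all genes tested that passed at those sizes. The median log2 difference of the 9 genes, HCC70 minus MDA-MB-231, was 3.76, beside -0.03 over all genes tested. In such bulk samples, fewer cells that express a gene and less RNA per cell cannot be told apart.

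**Figure D1:**
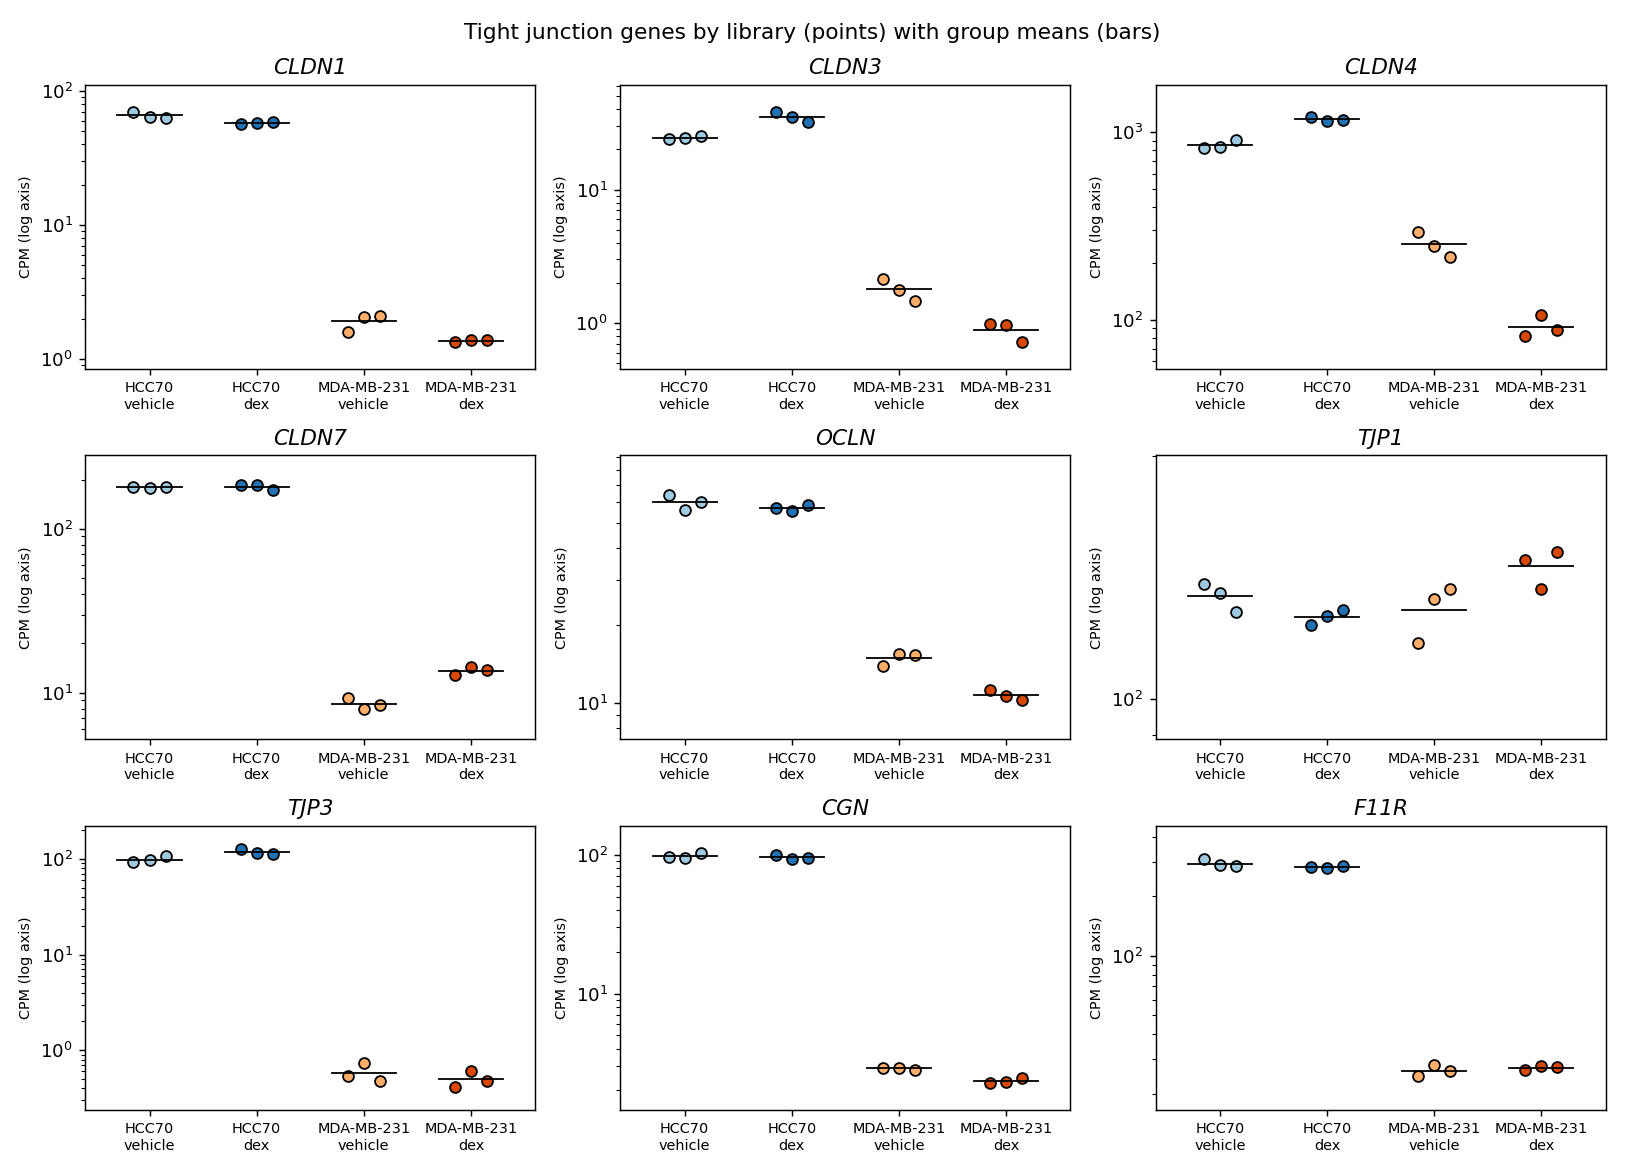
Level of each of the 9 tight junction genes in CPM (log axis) in every library (points) of the 4 groups, with group means (bars). In 8 panels all HCC70 libraries lie above all MDA-MB-231 libraries, while the TJP1 panel has all 12 libraries between 117 and 152 CPM.

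The widest gap was in the scaffold TJP3, which averaged 97.8 CPM (SD 7.3, n = 3) in HCC70 vehicle and 0.581 CPM (SD 0.14, n = 3) in MDA-MB-231 vehicle, a log2 difference of 7.38 (SE 0.15, adjusted p = 2.51e-14) or 167-fold. Its MDA-MB-231 libraries held 64, 94 and 54 reads, which is well above 0 but little. CLDN1, with 66.0 CPM (SD 3.7) against 1.92 CPM (SD 0.28), and CGN, with 97.9 CPM (SD 4.3) against 2.88 CPM (SD 0.053), were 34.4-fold and 34.0-fold apart. CLDN7 was 21.1-fold higher in HCC70, CLDN3 13.6-fold and F11R 11.2-fold. The smallest passing differences were those of OCLN, 60.1 CPM (SD 4.0) against 14.9 CPM (SD 0.85) or 4.03-fold, and CLDN4, 858 CPM (SD 46) against 252 CPM (SD 39) or 3.41-fold. In these 8 genes the libraries of the lines did not overlap, which was so for 80.3% of all genes tested.

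TJP1, which encodes ZO-1 and is also used at adherens junctions, was the 1 gene whose vehicle levels did not differ beyond the spread of the libraries. The HCC70 vehicle libraries held 139, 135 and 128 CPM and the MDA-MB-231 vehicle libraries 117, 133 and 137 CPM. These ranges overlapped, and the log2 difference of 0.06 (SE 0.068) had an adjusted p of 0.462 in the edgeR test. Its sign turned with other scalings (-0.04 by upper quartile and -0.03 by library size only), while with the GC trend removed it was 0.16 and passed (adjusted p = 0.00670). TJP1 thus averaged 129 CPM (SD 10, n = 3) in the line whose other scaffold genes, TJP3 and CGN, averaged 0.581 and 2.88 CPM.

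Levels of different genes can be set side by side only per length, here per kb of the longest principal transcript. In HCC70 vehicle the order in CPM per kb was CLDN4 at 206 (SD 11), CLDN7 at 116 (SD 0.49), F11R at 60.7 (SD 2.7), TJP3 at 29.2 (SD 2.2), CGN at 19.2 (SD 0.84), CLDN3 at 19.2 (SD 0.48), CLDN1 at 19.0 (SD 1.1), TJP1 at 16.9 (SD 0.69) and OCLN at 9.34 (SD 0.63). CGN, CLDN3 and CLDN1 lay within their spread of each other, and every other step was wider than the SDs on either side of it. In MDA-MB-231 vehicle the order was CLDN4 at 60.4 (SD 9.3), TJP1 at 16.2 (SD 1.3), CLDN7 at 5.53 (SD 0.45), F11R at 5.43 (SD 0.37), OCLN at 2.32 (SD 0.13), CLDN3 at 1.41 (SD 0.26), CGN at 0.566 (SD 0.010), CLDN1 at 0.551 (SD 0.080) and TJP3 at 0.173 (SD 0.041). Here CLDN7 and F11R lay within their spread of each other, as did CGN and CLDN1. CLDN4 thus headed both orders, and it remained the main claudin transcript of the 4 in the line classed as claudin-low, where it made up 89.0% of their summed level per kb beside 57.1% in HCC70. With the union of all exons as the length, a setting added later, CLDN7 was at 87.0 CPM per kb in HCC70 vehicle, still second, and at 4.13 in MDA-MB-231 vehicle, below F11R.

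**Figure D2:**
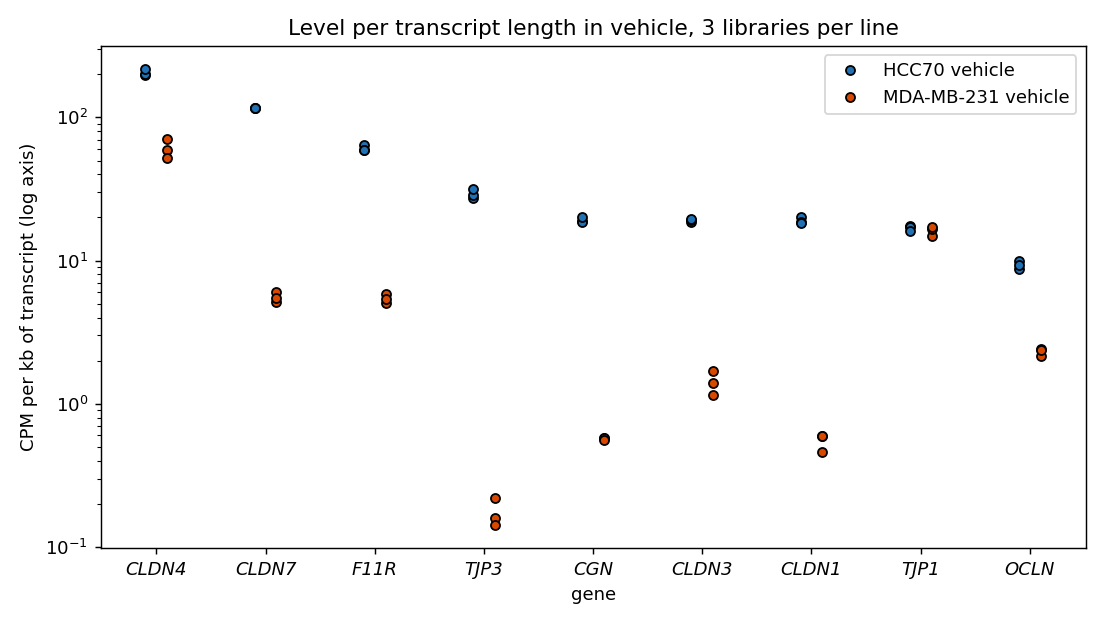
Level in vehicle per kb of the longest principal transcript (CPM per kb, log axis) for the 9 genes, with a point for each of the 3 libraries of each line, in the order of HCC70. CLDN4 is the highest point in both lines, and TJP1 is the gene whose 2 sets of points lie on each other.

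In the fit shared by both lines, dexamethasone moved fewer of these genes past the threshold in HCC70 than in MDA-MB-231. In HCC70, 2 of 9 passed as higher (CLDN3 and CLDN4) and 0 as lower, where 3.96% of all genes tested passed, 2.55% as higher and 1.4% as lower. CLDN1 was the 1 gene lower at an unadjusted p under 0.05, and DESeq2 and limma voom also gave 2 higher and 0 lower. In MDA-MB-231, 1 of 9 passed as higher (CLDN7) and 5 as lower (CLDN1, CLDN3, CLDN4, OCLN and CGN), where 14.6% of all genes passed, 6.65% as higher and 7.96% as lower. The median log2 fold change of the 9 genes was -0.03 in HCC70 and -0.30 in MDA-MB-231, and over all genes tested it was -0.01 in both lines. The difference between the responses, HCC70 minus MDA-MB-231, passed for 4 of 9 genes (CLDN3, CLDN4 and OCLN above 0, CLDN7 below it), where 12.1% of all genes passed, 6.96% above 0 and 5.09% below it. The treated and vehicle libraries did not overlap for 5 of 9 genes in HCC70 and 6 of 9 in MDA-MB-231, beside 32.4% and 27.2% of all genes tested. With each line fitted alone, 4 of 9 genes passed in HCC70. CLDN1 and CGN then no longer passed in MDA-MB-231 (adjusted p = 0.0658 and 0.120, edgeR's quasi-likelihood test). Over all genes, 4828 passed in HCC70 and 2116 in MDA-MB-231 when fitted alone.

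CLDN4 gave the largest response. Claudin-4 is a claudin of tight epithelia and, with claudin-3, a receptor for the enterotoxin of Clostridium perfringens. In MDA-MB-231 its vehicle libraries held 292, 248 and 215 CPM and its dexamethasone libraries 81.3, 106 and 87.7 CPM. All treated libraries lay below all vehicle libraries, and the gene fell 2.75-fold (log2 fold change -1.46, SE 0.11, adjusted p = 7.22e-07, edgeR's quasi-likelihood test). This call held in all 25 alternatives run, each library left out in turn among them, with a highest adjusted p of 0.000921, and the log2 fold change was -1.28 with the GC trend removed. In HCC70 the same gene moved the other way, from 827, 835 and 911 CPM in vehicle to 1199.9, 1147 and 1164 CPM in dexamethasone. The groups did not overlap, and CLDN4 rose 1.36-fold (log2 fold change 0.45, SE 0.11, adjusted p = 0.0356). This smaller rise was the less secure of the 2 responses, as leaving out any 1 of the 6 HCC70 libraries, MDA-MB-231 dexamethasone replicate 3 or MDA-MB-231 vehicle replicate 2 ended the call, with an adjusted p of up to 0.162, whereas removing the GC trend gave a log2 fold change of 0.30 with an adjusted p of 0.00121. The difference of the 2 responses was 1.91 on the log2 scale (SE 0.15, adjusted p = 3.77e-06) and passed in all 23 alternatives run. After treatment the gene stood at 1170.2 CPM in HCC70 and 91.6 CPM in MDA-MB-231.

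The 250 bases before the annotated start of CLDN4 hold an AP-1 motif (TGANTCA, searched on both strands) at 2 places, -242 and -161 bases from the start. AP-1 is the Fos and Jun factor with which the glucocorticoid receptor is known to interact at many sites. The motif occurred in 6.57% of 35116 RefSeq promoters of that length (build GRCh38.p14), and among the 8 of 9 genes matched by symbol to that table, with 14 promoters, no other promoter held it. The stretches around both places are shown because CLDN4 carries the largest response, 5′ to 3′ on the plus strand, with the motif in capitals.
CLDN4 chr7:73830746-73830772: ctgggctgTGATTCAgtgtctgtctcc
CLDN4 chr7:73830827-73830853: ctggatagTGACTCAgggacccggggc
A full glucocorticoid receptor site (AGAACA and TGTTCT with 3 free bases between) matched in 0 of the 14 promoters and in 1 of the 35116, and its AGAACA part, found in 12.4% of all promoters, matched in 1 of 4 TJP1 promoters. A match describes these letters only.

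CLDN3 is the neighbour of CLDN4 on chromosome 7 and encodes another sealing claudin of epithelia. In HCC70 its libraries held 23.8, 24.5 and 25.1 CPM in vehicle and 38.4, 34.8 and 32.0 CPM in dexamethasone. The groups did not overlap, and CLDN3 rose 1.43-fold (log2 fold change 0.52, SE 0.11, adjusted p = 0.0163, edgeR's quasi-likelihood test). In MDA-MB-231 it was already low, at 2.14, 1.78 and 1.47 CPM in vehicle, and its dexamethasone libraries held 0.980, 0.969 and 0.720 CPM. All 3 treated libraries lay below the vehicle libraries, and CLDN3 fell 2.02-fold (log2 fold change -1.02, SE 0.15, adjusted p = 0.000251). Its responses differed by 1.53 (SE 0.18, adjusted p = 0.000103). CLDN3 has the highest GC content of the 9 genes, 69.2%, and its values move with the GC trend of the libraries. With that trend removed the log2 fold changes were 0.05 in HCC70 (adjusted p = 0.842) and -0.37 in MDA-MB-231 (adjusted p = 0.147), and their difference of 0.42 did not pass (adjusted p = 0.175). The HCC70 call also ended when any single HCC70 library but dexamethasone replicate 3 was left out.

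CLDN7 was the 1 gene of the 9 that rose in MDA-MB-231 at the adjusted threshold, while TJP1 was also higher at an unadjusted p of 0.0203. Claudin-7 lies along the whole side wall of epithelial cells as well as at the junction. Its vehicle libraries in that line held 9.28, 7.91 and 8.40 CPM and its dexamethasone libraries 12.8, 14.3 and 13.8 CPM. The treated libraries were all above the vehicle libraries, by 1.60-fold (log2 fold change 0.68, SE 0.068, adjusted p = 8.31e-06, edgeR's quasi-likelihood test), and the call held in all 25 alternatives run. With the GC trend removed the log2 fold change was 0.90. In HCC70 the gene was at 180, 179 and 180 CPM in vehicle and 184, 184 and 172 CPM in dexamethasone. These ranges overlapped and the log2 fold change was 0.01 (adjusted p = 0.985), though with the GC trend removed it was -0.18 (adjusted p = 0.0851, and 0.00523 when HCC70 was also fitted alone). The responses differed by -0.67 (SE 0.094, adjusted p = 0.000402). Exons of a readthrough gene on the same strand, AC003688.1, cover 13.0% of the exon bases of CLDN7, so reads there could be split between them.

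CLDN4 and CLDN7 moved in opposite ways in MDA-MB-231, and the makeup of the 4 claudins described here is given as shares. These shares leave out all other claudins. Among those, CLDN12 was at 8.28 CPM per kb in MDA-MB-231 vehicle, above CLDN7 at 5.53, and CLDN23 was at 4.70. In vehicle the 4 claudins summed to 67.9 CPM per kb, of which CLDN4 was 89.0% and CLDN7 8.14%. In dexamethasone the sum was 32.0 CPM per kb, with 68.9% from CLDN4 and 27.7% from CLDN7. In HCC70 the sum was 361 CPM per kb in vehicle and 442 in dexamethasone, with CLDN4 at 57.1% and 63.6% and CLDN7 at 32.3% and 26.5%. These shares are a description of group means and were not tested. CLDN1 and CLDN3 each made up at most 6.22% of the 4 in any group.

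**Figure D3:**
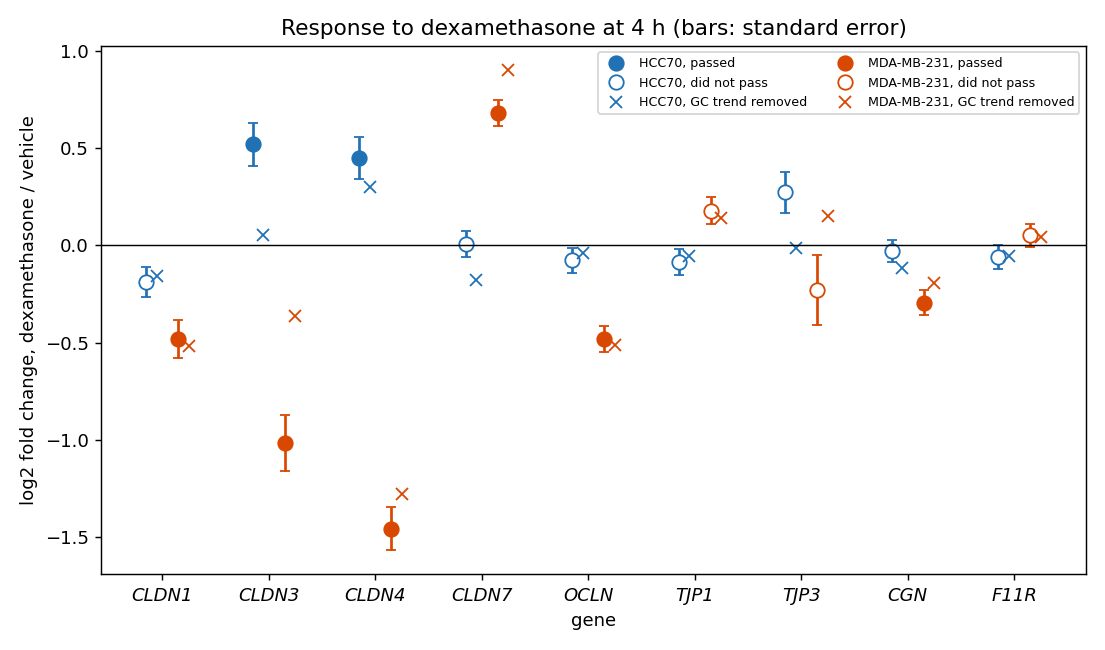
Log2 fold change, dexamethasone over vehicle, of the 9 genes in HCC70 (blue) and MDA-MB-231 (orange), with standard errors as bars, filled where the adjusted p was under 0.05, and with crosses for the value after the GC trend was removed. CLDN4 keeps opposite signs in the lines with and without that correction, while the CLDN3 points move toward 0, from 0.52 to 0.05 in HCC70 and from -1.02 to -0.37 in MDA-MB-231.

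The second annotated promoter of CLDN7 holds the E-box CAGGTG, the sequence that repressors such as ZEB1 bind, at 4 places within 250 bases of its start (searched on both strands, so also as CACCTG), at -174, -135, -20 and -9. The E-box occurred at least once in 17.5% of the 35116 promoters, and among the other genes here both OCLN promoters, 1 of TJP1 and 1 of TJP3 held it once each. It matched 0 times for CLDN1, CLDN3 and CGN, which were 34.4-fold, 13.6-fold and 34.0-fold lower in MDA-MB-231 vehicle. TJP1, which held it, did not differ between the lines at the adjusted threshold. F11R was not matched to the promoter table. The CLDN7 stretches are shown because this promoter holds the E-box at the most places, on the minus strand of chromosome 17, 5′ to 3′ (GRCh38.p14), with the E-box in capitals.
CLDN7 chr17:7262634-7262660: ttcctcctCACCTGggcaaggaggggt
CLDN7 chr17:7262595-7262621: ttccggttCAGGTGagtgtcccttcgg
CLDN7 chr17:7262480-7262506: catatactCAGGTGcgcccCACCTGtc
The third stretch holds 2 of the 4 places. Binding to these letters was not measured here, and the part of ZEB1 in the level of CLDN7 was not tested.

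CLDN1, a claudin of skin and many epithelia, held 1.60, 2.07 and 2.08 CPM in MDA-MB-231 vehicle and 1.34, 1.39 and 1.39 CPM in dexamethasone. The groups did not overlap and the gene fell (log2 fold change -0.48, SE 0.097, adjusted p = 0.00411, edgeR's quasi-likelihood test), at 172 to 265 reads a library. Fitted with the MDA-MB-231 libraries alone it missed the threshold (adjusted p = 0.0658). In HCC70 it went from 70.2, 64.4 and 63.4 CPM to 57.0, 57.7 and 59.0 CPM. The treated libraries were all lower there too, by a log2 fold change of -0.19 (SE 0.075) that did not pass (adjusted p = 0.206), and that passed when HCC70 was fitted alone (adjusted p = 0.0120). The difference of the responses, 0.29, did not pass (adjusted p = 0.128), but reached 0.36 and passed with the GC trend removed (adjusted p = 0.0217).

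Of the other membrane proteins, occludin responded in MDA-MB-231. OCLN held 13.9, 15.5 and 15.3 CPM there in vehicle and 11.2, 10.6 and 10.3 CPM in dexamethasone. All treated libraries lay below all vehicle libraries, and it fell (log2 fold change -0.48, SE 0.066, adjusted p = 0.000183, edgeR's quasi-likelihood test) with the call held in all 25 alternatives run. In HCC70 it held 64.1, 56.1 and 60.2 CPM in vehicle and 56.9, 55.7 and 58.5 CPM in dexamethasone. Those groups overlapped (log2 fold change -0.08, SE 0.064, adjusted p = 0.556). The responses differed by 0.40 (SE 0.092, adjusted p = 0.0137), a call that scaling by library size only ended (adjusted p = 0.0921). F11R, an immunoglobulin-like adhesion protein that recruits polarity proteins to new contacts, did not pass in either line. It went from 308, 288 and 284 CPM to 281, 280 and 284 CPM in HCC70 (log2 fold change -0.06, SE 0.060, adjusted p = 0.619) and from 24.5, 28.1 and 26.1 CPM to 26.5, 27.6 and 27.5 CPM in MDA-MB-231 (0.05, SE 0.061, adjusted p = 0.625). Exons of the readthrough gene AL591806.3 on the same strand cover 38.3% of the exon bases of F11R, so its reads may be split.

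Of the 3 scaffolds, CGN passed in MDA-MB-231 and none passed in HCC70. CGN, which links the junction to actomyosin and to RhoA regulators, held 2.91, 2.91 and 2.82 CPM in MDA-MB-231 vehicle and 2.28, 2.29 and 2.48 CPM in dexamethasone. The groups did not overlap and it fell 1.23-fold (log2 fold change -0.30, SE 0.065, adjusted p = 0.00739, edgeR's quasi-likelihood test), a call that ended with the GC trend removed (log2 fold change -0.19, adjusted p = 0.0545) and with the line fitted alone (adjusted p = 0.120). In HCC70 CGN had a log2 fold change of -0.03 (SE 0.055, adjusted p = 0.816) with overlapping groups, at a mean of 97.9 CPM in vehicle and 95.9 CPM in dexamethasone. TJP1 went from 117, 133 and 137 CPM to 149, 137 and 152 CPM in MDA-MB-231. These groups overlapped, and the log2 fold change of 0.18 (SE 0.068) had an adjusted p of 0.0954, which came below the threshold without dexamethasone replicate 2 (0.0290), without vehicle replicate 3 (0.0453), without vehicle replicate 1 and dexamethasone replicate 2 together (0.0327) and with a strict filter on low counts (0.0425). In HCC70 TJP1 had a log2 fold change of -0.09 (adjusted p = 0.521). TJP3 went from 91.6, 96.0 and 106 CPM to 127, 116 and 111 CPM in HCC70. Its treated libraries were all higher, by a log2 fold change of 0.27 (SE 0.10) that did not pass (adjusted p = 0.192). It passed with HCC70 fitted alone and without MDA-MB-231 vehicle replicate 1 and dexamethasone replicate 2 (lowest adjusted p = 0.00711). At 62.7% GC TJP3 is second only to CLDN3, and with the GC trend removed its log2 fold change in HCC70 was -0.01. In MDA-MB-231 its 54 to 94 reads a library gave a log2 fold change of -0.23 (SE 0.18, adjusted p = 0.427).

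The wider junction was described by a list of 42 other tight junction genes, of which 40 were tested. In MDA-MB-231, 2 of the 40 passed as higher and 9 as lower, where 6.65% and 7.96% of all genes tested did so, and their median log2 fold change was -0.22 beside -0.01 over all genes. PARD6B, a subunit of the polarity complex that places the junction, fell 1.74-fold, from 14.4 CPM (SD 0.78, n = 3) to 8.28 CPM (SD 0.51, n = 3) (adjusted p = 3.23e-06, edgeR's quasi-likelihood test). The claudins CLDN9, with a mean of 1.83 CPM in vehicle and 0.827 CPM in dexamethasone, and CLDN23, with 10.2 and 4.79 CPM, fell 2.22-fold and 2.13-fold (adjusted p = 0.000210 and 0.000232). With the GC trend removed, the log2 fold change of CLDN9 went from -1.15 to -0.69 and that of CLDN23 from -1.09 to -0.80, and both still passed. CXADR, an adhesion protein also known as the coxsackievirus and adenovirus receptor, fell 1.37-fold (adjusted p = 0.000570). Of the 2 that rose, CSDA, now named YBX3 and the ZO-1-associated nucleic acid-binding factor, went from 123 to 144 CPM (1.17-fold, adjusted p = 0.0260), a call that the fit of this line alone ended (adjusted p = 0.0714), as did leaving out dexamethasone replicate 1 or 3 or vehicle replicate 1 or 2. The other, CLDN10, was at 0 CPM in vehicle and 0.0285 CPM in dexamethasone, the latter from 3, 2 and 6 reads. Exons of DZIP1 on the opposite strand cover 46.1% of the exon bases of CLDN10, and the library kit does not keep strand.

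In HCC70 the same list had 0 of 40 genes higher and 1 lower, where 2.55% and 1.4% of all genes tested passed in those directions, and a median log2 fold change of -0.01, as over all genes. AMOTL1, an angiomotin-like scaffold, fell by 0.26 on the log2 scale (adjusted p = 0.0151), and leaving out any of the 3 dexamethasone libraries or vehicle replicate 3 ended that call. At an unadjusted p under 0.05, 1 gene was higher (AMOTL2) and 4 were lower, DESeq2 gave 1 higher and 2 lower, and limma voom 0 and 1. The difference of the responses passed for 5 genes, PARD6B, CLDN9, CLDN23, MAGI1 and AMOTL2, all above 0 (HCC70 minus MDA-MB-231), and for 0 below it. These 5 of 40 are near the share of all genes tested that passed, 12.1% (6.96% above 0 and 5.09% below it). Below 0 there were 3 at an unadjusted p under 0.05 and 0 at the adjusted threshold by DESeq2 or limma voom.

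**Figure D4:**
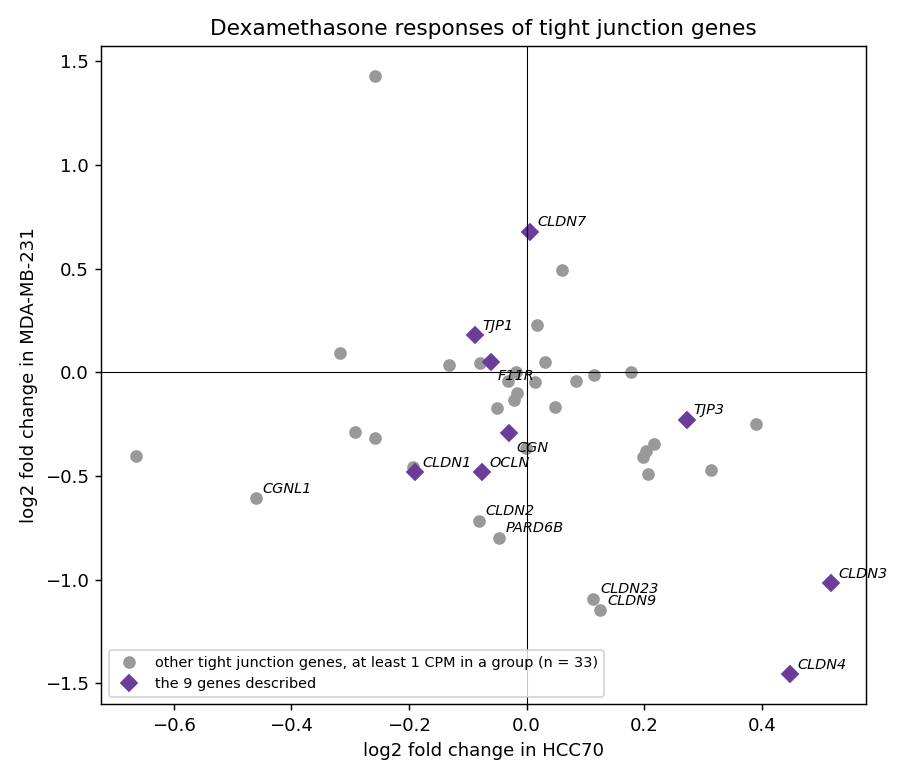
Log2 fold change with dexamethasone in HCC70 (horizontal) and MDA-MB-231 (vertical) for the 9 genes (purple diamonds) and 33 other tight junction genes with at least 1 CPM in a group (grey). CLDN3 (0.52 and -1.02) and CLDN4 (0.45 and -1.46) lie farthest to the lower right, where TJP3, CLDN9, CLDN23 and other genes also have values above 0 in HCC70 and below 0 in MDA-MB-231, and CLDN7 is at 0.01 in HCC70 and 0.68 in MDA-MB-231.

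Passing as higher in HCC70 and lower in MDA-MB-231 was rare over the whole table, at 124 genes or 0.441% of those tested. CLDN3 and CLDN4 were the 2 of the 9 genes in it, and CLDN4 alone of the 2 kept both calls with the GC trend removed.

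Between the lines in vehicle, 21 of the 40 other genes were higher in HCC70 and 13 lower, where 39.2% and 40% of all genes tested were. The median log2 difference was 0.29, against 3.76 for the 9 genes and -0.03 over all genes. MARVELD2, which encodes tricellulin, the protein of tricellular corners, averaged 21.6 CPM in HCC70 and 3.35 CPM in MDA-MB-231. INADL, now PATJ, a polarity scaffold, averaged 129 and 18.1 CPM, CXADR 94.0 and 17.0 CPM, and the polarity protein PARD3 231 and 60.4 CPM. In the other direction stood ESAM, an adhesion molecule named for endothelium, at 8.99 and 89.4 CPM, AMOTL1 at 61.1 and 145 CPM and the scaffold MAGI1 at 16.2 and 41.2 CPM. CLDN22, at 1.46 and 3.77 CPM, lies wholly within exons of WWC2 on the opposite strand, and the library kit does not keep strand, so its reads cannot be told from those of WWC2. Chosen after their values were seen, CLDN2, a claudin that forms cation pores, was at 0.0631 CPM in HCC70 and 10.8 CPM in MDA-MB-231, and the cingulin-like gene CGNL1 had a log2 difference of -7.02, opposite in sign to that of CGN. Wide gaps in the other direction, chosen in the same way, were those of AMOT (120 and 0.0198 CPM), MARVELD3 (25.4 and 0.0547 CPM) and LSR (624 and 40.8 CPM). CLDN8 (8.04 and 0 CPM) and ILDR1 (2.07 and 0 CPM) were also higher in HCC70, with no read in any MDA-MB-231 library. Wide gaps among the other junction genes thus ran in both directions. By log2 difference the widest were those of CLDN8, AMOT, ILDR1 and MARVELD3, all higher in HCC70 and wider than those of CLDN2 and CGNL1.

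As a description of the pattern over all 12 libraries, the gene most like each member by Pearson correlation of log2 CPM, among 14353 genes, was CASP10 for CLDN1 (0.9996), AC022098.1 for CLDN3 (0.998), ARHGEF2 for CLDN4 (0.997), CD24P4 for CLDN7 (0.999), TM4SF1 for OCLN (0.999), AP3B1 for TJP1 (0.953), MYH14 for TJP3 (0.9999), MYO5B for CGN (0.9998) and DSC2 for F11R (0.9996). The libraries share their line, so apart from TJP1 these values carry the gap between the lines as well as any response to treatment. The parts of line and treatment were not separated. For CLDN4 the log2 difference between the lines in vehicle was 1.77 and the response in MDA-MB-231 was -1.46.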

How the data were processed

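The authors deposited a table of whole-number read counts per gene for 12 libraries, with no scaling between them. The build was hg19 and the tools named are bedtools, Cufflinks 1.3.0 and TopHat 1.4.1, per the submitters' processing notes, and the tool that made the counts is not given in the sources used here. The libraries were polyA-selected and not stranded, per the labels' protocols.

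In edgeR 4.0.16 under R 4.3.3, filterByExpr with a minimum count of 10 kept 28141 genes, and TMM factors scaled the libraries. A robust quasi-likelihood fit with 4 group means over all 12 libraries (8 residual degrees of freedom) was tested two-sided, with Benjamini-Hochberg adjustment over all genes and a threshold of 0.05. CPM are TMM-scaled, with SD over 3 libraries. Each SE of the edgeR fit, also in the figure, is the absolute log2 fold change divided by the square root of the test's F statistic. It is therefore tied to the test and unreliable for changes near 0. The scripts were tested on simulated counts. The 9 genes are named in every comparison. Of the 42 other junction genes, up to 4 per direction with the smallest p and a mean log2 CPM of at least 1 are named. The members and lists were chosen with earlier results of these data known. Gene length, GC content (89.8% of tested genes have a value) and exon overlap come from an annotation of a later build, so no coordinates of whole genes are given. Coordinates of the promoter stretches are those of GRCh38.p14, not of hg19. For the GC correction, each gene's log2 level was taken as its deviation from its mean over all 12 libraries. Each library's trend of these deviations with GC content was subtracted, so trends between the lines were removed too. Genes without a GC value were left uncorrected. DESeq2 1.42.0, limma 3.58.1, other scalings and filters, each line fitted alone, left-out libraries and a replicate block were alternatives.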

Additional observations from a re-analysis of the deposited data

Results flagged for a closer look

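The responses to dexamethasone differed between the lines by the test of the difference itself (edgeR's quasi-likelihood test) in 4 of the 9 genes described and 5 of the 40 other tight junction genes tested, where 12.1% of all genes passed. Each value is HCC70 minus MDA-MB-231 on the log2 scale. Above 0 were CLDN4 (1.91, adjusted p = 3.77e-06), CLDN3 (1.53, adjusted p = 0.000103), CLDN9 (1.27, adjusted p = 0.00139), CLDN23 (1.21, adjusted p = 0.00364) and PARD6B (0.75, adjusted p = 0.000354), as were AMOTL2 (0.64, adjusted p = 0.0304), OCLN (0.40, adjusted p = 0.0137) and MAGI1 (0.36, adjusted p = 0.0135). CLDN7 alone was below 0 (-0.67, adjusted p = 0.000402). With the GC trend removed, CLDN3 was at 0.42 and no longer passed, AMOTL2 was at 0.18 (adjusted p = 0.0453), and CLDN9 and CLDN23 were at 0.48 and 0.68. Leaving out any of 3 HCC70 dexamethasone libraries, HCC70 vehicle replicate 1 or 2, or MDA-MB-231 dexamethasone replicate 1 or 3 ended the call of AMOTL2 (adjusted p of up to 0.0865), and leaving out HCC70 dexamethasone replicate 1 ended that of MAGI1 (adjusted p = 0.0575). Scaling by library size only also ended the call of MAGI1 (adjusted p = 0.0688), and testing without a low-count filter that of AMOTL2 (adjusted p = 0.0583).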

How the results depend on the processing

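Levels per kb were recomputed only with the union of all exons as the length. The test results of the 9 genes and of most other junction genes named, and the counts of calls, were recomputed in 23 to 25 other settings. The calls of CLDN4, CLDN7 and OCLN in MDA-MB-231, of CLDN4 and CLDN7 for the difference of the responses, and of the 8 genes higher in HCC70 vehicle held in all of them. Where a count or sign changed, the cause was not tested. In HCC70 the 2 calls among the 9 genes became 1 without a low-count filter, with the replicate block and with the GC trend removed, and 4 (3 higher, 1 lower) with the line fitted alone or without MDA-MB-231 vehicle 1 and dexamethasone 2. With the GC trend removed and the line fitted alone the 4 were CLDN4 higher and CLDN1, CLDN7 and CGN lower. The 1 call among the other junction genes in HCC70 became 3 with DESeq2, 0 with the replicate block, 7 fitted alone, 5 without that pair of libraries, 3 with the GC trend removed and 6 with that and the line fitted alone. Their 5 calls for the difference became 10 with DESeq2, 3 with the block and 12 without the pair.

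Over all genes, the 1114 calls in HCC70 (719 higher, 395 lower) became 1679 with DESeq2, 481 with the block, 4828 fitted alone, 3867 without the pair, 1927 with the GC trend removed (903 higher, 1024 lower), 4737 with that and the line fitted alone, and 1314 by library size only (552 higher, 762 lower). The 4110 calls in MDA-MB-231 became 2551 with the block and 2116 fitted alone, and with the GC trend removed the share called higher went from 45.5% to 57.2%. The 3391 calls for the difference became 1480 with the block and 6206 without the pair, and the share above 0 went from 57.8% to 41.4% by library size only, 35.7% with the GC trend removed and 46.1% with a filter of 5 CPM in 3 libraries, a filter that also brought the 22294 calls between the lines to 11980 and the share called higher in HCC70 with dexamethasone from 64.5% to 51.8%. Leaving out 1 library gave 0 to 3 calls among the 9 genes in HCC70, 0 to 4 among the other junction genes there and 3 to 9 for their difference. Over all genes it gave 510 to 1775 calls in HCC70, 2424 to 6452 in MDA-MB-231 and 1614 to 6259 for the difference.

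The sign of CLDN7 in HCC70 turned by upper quartile (-0.0071), library size only (-0.081), the strict filter (-0.0063) and GC correction (-0.18, also fitted alone), and with 1 library left out it ran from -0.0096 to 0.039. TJP1 between the lines turned to -0.044 by upper quartile, -0.028 by library size only and -0.033 without the pair, and ran from -0.029 to 0.096 with 1 library left out. CGN in HCC70 ran from -0.058 to 0.0071. GC correction turned TJP3 to -0.014 in HCC70 (-0.015 fitted alone), 0.15 in MDA-MB-231 (0.14 alone) and -0.16 for the difference. Same-numbered libraries did not deviate together (correlations of -0.233, 0.118 and 0.011 in HCC70, and of -0.634, -0.261 and 0.330 in MDA-MB-231), so the replicate numbers were not taken as pairs. Among the treated libraries, only MDA-MB-231 dexamethasone replicate 3 was closest to the vehicle library of its own number. In that line dexamethasone replicate 2 deviated with vehicle replicate 1 (0.712), and dexamethasone replicate 1 with vehicle replicate 3 (0.617). With the replicate block the HCC70 call of CLDN4 ended (adjusted p = 0.116), as did those of OCLN, MAGI1 and AMOTL2 for the difference (adjusted p = 0.0593, 0.0671 and 0.0778), AMOTL1 in HCC70 (0.103) and CSDA in MDA-MB-231 (0.0982). Depth limits TJP3, CLDN1 and CLDN3 in MDA-MB-231 most, at 54 to 265 reads a library.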

Other observations

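CLDN3 and CLDN4 lie side by side on chromosome 7, and the genes around them in the RefSeq order were looked at after their own values had been seen. STX1A, which encodes the membrane fusion protein syntaxin-1A, also moved in opposite ways, from 17.3 to 27.6 CPM in HCC70 (log2 fold change 0.67, adjusted p = 0.0101, edgeR's quasi-likelihood test) and from 38.4 to 20.0 CPM in MDA-MB-231 (-0.94, adjusted p = 0.000231). Its responses differed by 1.61 (adjusted p = 0.000103), and with the GC trend removed the values were 0.44 and -0.65, and both passed (adjusted p = 0.000352 and 9.46e-07). ABHD11, which lies between STX1A and CLDN3, was at 0.17 (adjusted p = 0.305) and -0.28 (adjusted p = 0.0472), and the second call ended with the GC trend removed (0.01, adjusted p = 0.973). WBSCR27 on the far side of CLDN4 did not pass in either line (0.14 and -0.10).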
